A study of Mus musculus with 20 samples.

Results

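The chemokine ligands and chemokine receptors of mouse liver were taken from the count table by their symbols: every gene named Ccl, Cxcl, Ccr or Cxcr with a number, together with Xcl1, Cx3cl1, Xcr1 and Cx3cr1. These were 57 of the 46095 gene symbols, 39 ligands and 18 receptors. The low-count filter of edgeR passed 31 of them, 21 ligands and 10 receptors, and the other 26 were too low to judge. Liver RNA was sequenced from 20 mice of 2 genotypes on 2 diets, with 5 mice per combination: wild type (WT) on chow, WT on a NASH diet, Pck1-cKO on chow and Pck1-cKO on the NASH diet. NASH stands for non-alcoholic steatohepatitis, a fatty liver with inflammation, and Pck1 encodes the cytosolic phosphoenolpyruvate carboxykinase of gluconeogenesis. Each diet had been given for 24 weeks and all mice were 31 to 33 weeks old, per the labels. The knockout mice are called KO here. The sources used here do not give the strain, the driver of the knockout or the cells in which it acts.

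Chemokines are small secreted or membrane-bound proteins that bind G protein-coupled receptors on leukocytes and direct their movement along a gradient. In liver they come from Kupffer cells, endothelium, stellate cells, bile duct cells and hepatocytes, and they draw monocytes, neutrophils and lymphocytes from the sinusoids into inflamed tissue. CC and CXC ligands are named for the spacing of their first cysteines, and one receptor often answers to several ligands. In whole-tissue RNA, fewer cells of a type and less RNA per cell cannot be told apart.

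Total counts ran from 9958935 to 20601955 per library. CPM are counts per 1000000 of the library size after TMM scaling, so that 1 CPM stood for 6.80 reads (WT NASH 4) to 24.9 reads (KO chow 2). On chow, Pck1 was 3573 ± 1139 CPM in WT and 626 ± 175 in KO, and on the NASH diet 2290 ± 511 in WT and 445 ± 112 in KO (SD, n = 5 each). The 7 hepatocyte markers summed to between 51828 and 131634 CPM in every library. Counts of 4 Y-linked genes showed 13 male and 7 female mice, unevenly spread: WT chow held 5 males, WT NASH 1 male (replicate 4), KO chow 3 and KO NASH 4. In 6 libraries (WT chow 3, 4 and 5, WT NASH 4, KO chow 4 and 5) log2 CPM, taken relative to each gene's mean over all libraries, fell with gene length. Their slopes ran from -0.347 to -0.250 per log2 unit of length, against 0.0132 to 0.194 in the other 14. A negative slope is thus relative to the average library and does not mean that level itself fell with length. KO NASH held none of the 6 libraries. KO NASH 1 and 5 were the most alike pair, with a median chi-square of 1.51 per gene against 2.17 for the next pair.

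Together the 57 genes took 0.0427% to 0.0981% of a library's counts, and KO chow 5 stood highest. Cxcl12 alone held 60.7% of their counts and Ccl9 13.6%. Per kb of exonic length, Cxcl12 led the tested genes with a median of 44.6 CPM per kb over the 20 libraries. Cxcl12 is the constitutive ligand of CXCR4 and holds leukocytes and progenitors in their niches. Ccl9 followed at a median of 20.9 CPM per kb and Ccl6 at 13.7, both rodent CC ligands of CCR1 made by macrophages and other myeloid cells. Cxcl9 had a median of 4.30, Cxcl13 4.18 and Ccl5 4.04 CPM per kb, and the ranges of these 3 over the libraries overlapped. Ccl22 was lowest at 0.105 CPM per kb. Spread also differed between genes: the coefficient of variation of the level over the 20 libraries was 20.6% for Cxcl12 and 210% for Ccl2. Of the 31 genes, 14 had their highest level in KO chow 5, 6 in WT NASH 4 and 3 in WT chow 4. How many of all genes peaked there was not counted, so this cannot be read as particular to chemokine genes. These 3 libraries also had the highest summed level within their groups for 5 of 13 cell marker lists, those of recruited monocytes and macrophages (1231, 1081 and 684 CPM), Kupffer cells (1116, 793 and 927), bile duct cells (254, 531 and 266), dendritic cells (20.2, 26.2 and 29.5) and NK and innate lymphoid cells. The bile duct list and the recruited monocyte and macrophage list share the gene Spp1, so their sums are not independent. The part of these cell types in the chemokine levels was not tested.

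**Figure D1:**
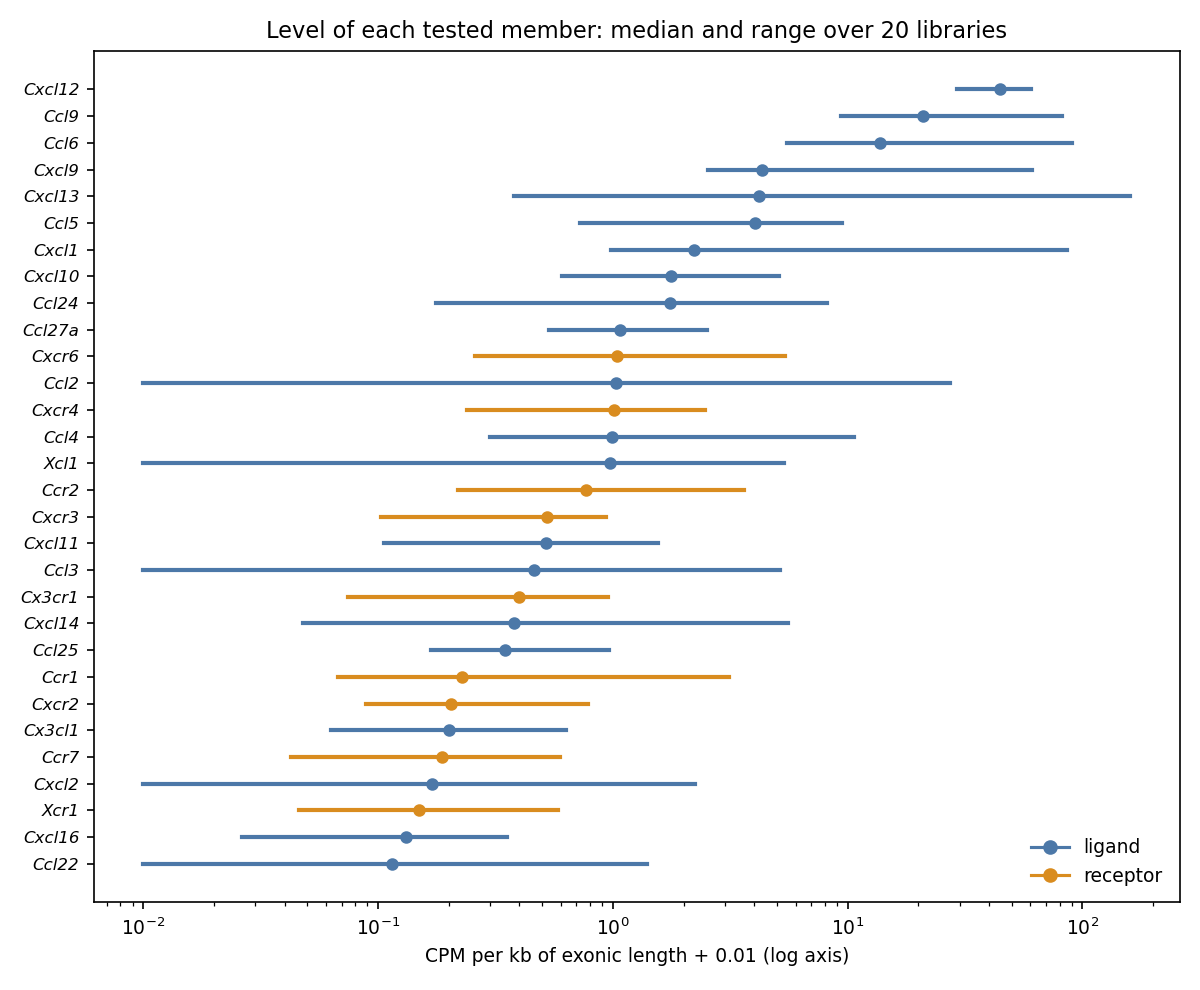
Levels of 30 tested genes in CPM per kb of exonic length plus 0.01, on a log axis. Points are medians over 20 libraries, lines run from the lowest to the highest library, blue marks ligands and orange receptors. Cxcl12 is highest with a median of 44.6 and a short line, and the lines of most neighbours in the order overlap.

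**Figure D2:**
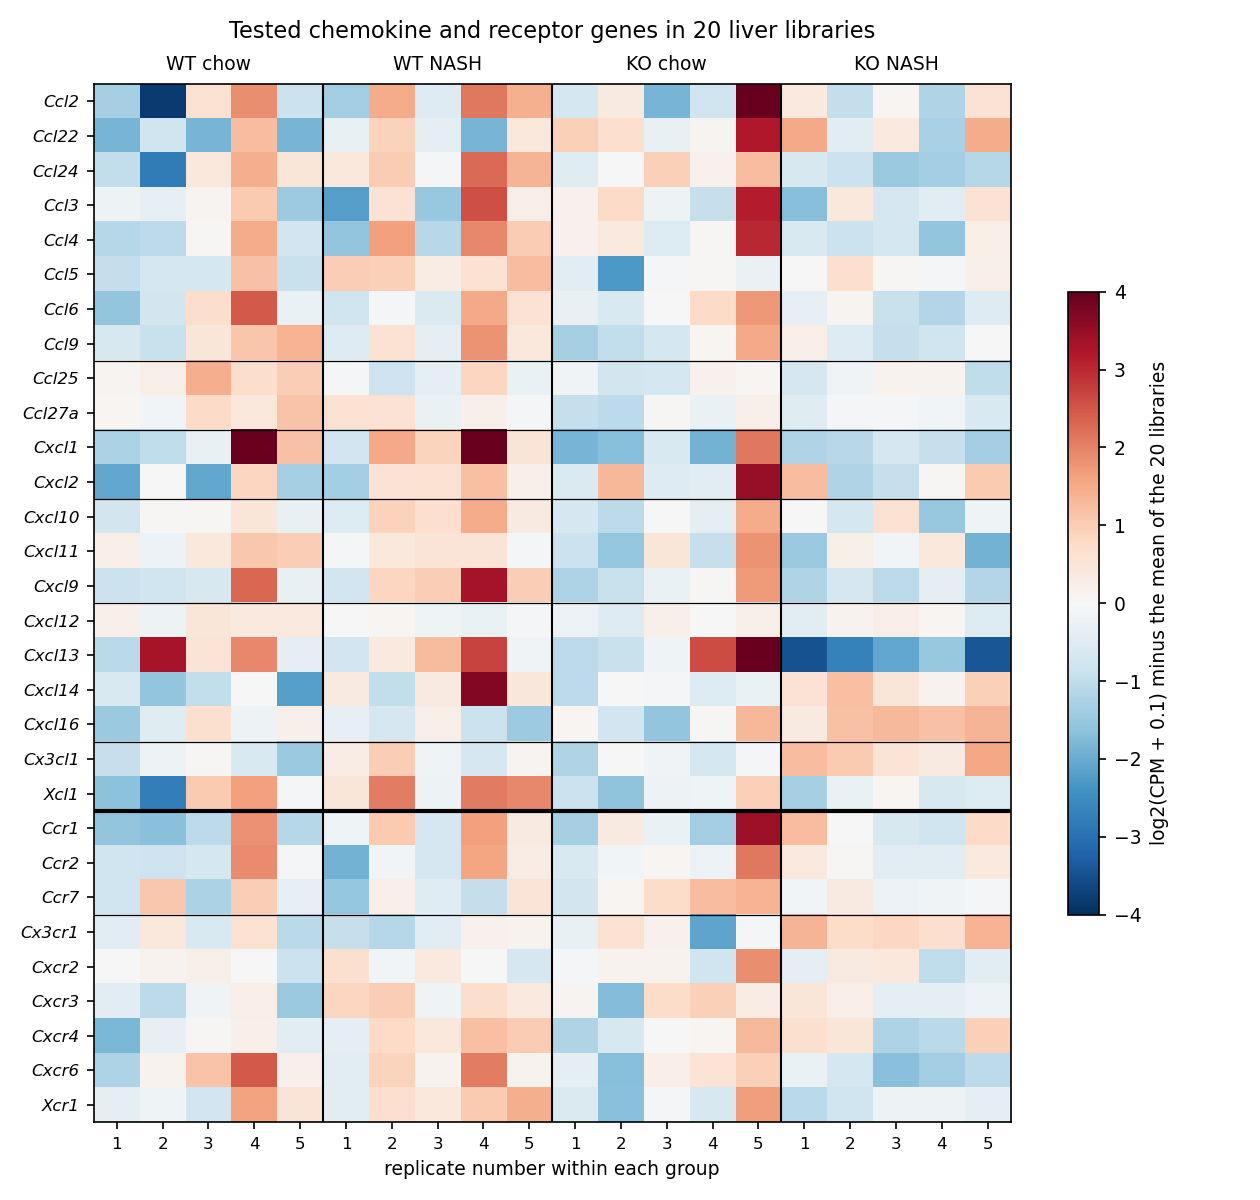
Each row is one of 30 tested genes, grouped by role with receptors below the thick line, and each column a library by replicate number within its group. Colour gives log2(CPM + 0.1) minus the mean of the 20 libraries, so red is above and blue below that gene's own mean. Columns of KO chow 5, WT NASH 4 and WT chow 4 are red over many ligands, and the 5 KO NASH columns are blue for Cxcl13.

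Counted by call, few chemokine genes differed between groups. A gene counted as called when its p from edgeR's quasi-likelihood test, adjusted by Benjamini-Hochberg over 14440 genes, was under 0.05. In WT NASH against WT chow 1 of the 31 was called, Cxcl14, where 5.93% of all genes were called and 2.69% called higher. KO chow against WT chow gave 0 calls against 5.53% of all genes. There edgeR gave 4 of the 31 an unadjusted p under 0.05 (19.4% of all genes), DESeq2 called 1 of the 53 with a count, Ccl25 (5.24% of all 26350 genes with a count), and limma voom with quality weights called 8 of the 31 (40.4% of all genes). For KO NASH against WT NASH 4 of the 31 were called against 9.65% of all genes: Ccl24, Cxcl9 and Cxcl13 were lower (3 of 31, where 4.74% of all genes were called lower) and Cx3cr1 was higher (4.9% of all genes). In KO NASH against KO chow 2 were called against 3.29% of all genes, Cxcl13 lower (1.52% of all genes) and Cx3cl1 higher (1.77% of all genes). For the interaction, the diet effect in KO minus that in WT, edgeR called 0 of the 31 against 0.139% of all genes. There edgeR gave 7 an unadjusted p under 0.05 (8.25% of all genes), DESeq2 called 1 of the 53, Cxcl13 (0.66% of all genes with a count), and limma voom called 2 (13.5% of all genes). With KO NASH 1 and 5 summed to 1 sample, Ccl24 and Cxcl14 were the only genes called in the 5 comparisons.

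The direction of the fold changes leaned one way in both comparisons with KO NASH. Of the 31 genes, 25 had a log2 fold change below 0 in KO NASH against WT NASH, with a median of -0.65 where the median of all genes was 0.00. Against KO chow 24 lay below 0, with a median of -0.66 against -0.02 for all genes. In WT NASH against WT chow 19 lay above 0 and the median was 0.56, against 0.01. In KO chow against WT chow 18 lay above 0 with a median of 0.25, against 0.00. For KO NASH against WT NASH the 21 ligands had a median of -0.93 and the 10 receptors one of -0.29, and the difference was not tested. Comparisons with a group in common share its 5 libraries, so these counts are not independent of each other. KO NASH held no library of negative length slope, against 3 in WT chow, 1 in WT NASH and 2 in KO chow. Of the 31 genes, 14 were highest in KO chow 5 and 6 in WT NASH 4, with the share of all genes not counted. The part of the length slope and of these libraries in the lean was not tested. Sex was mixed into KO NASH against WT NASH, as WT NASH held 4 females and KO NASH 1. It was mixed more fully into WT NASH against WT chow, since WT chow held no female. Diet and sex cannot be cleanly told apart there, also for the single genes below.

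**Figure D3:**
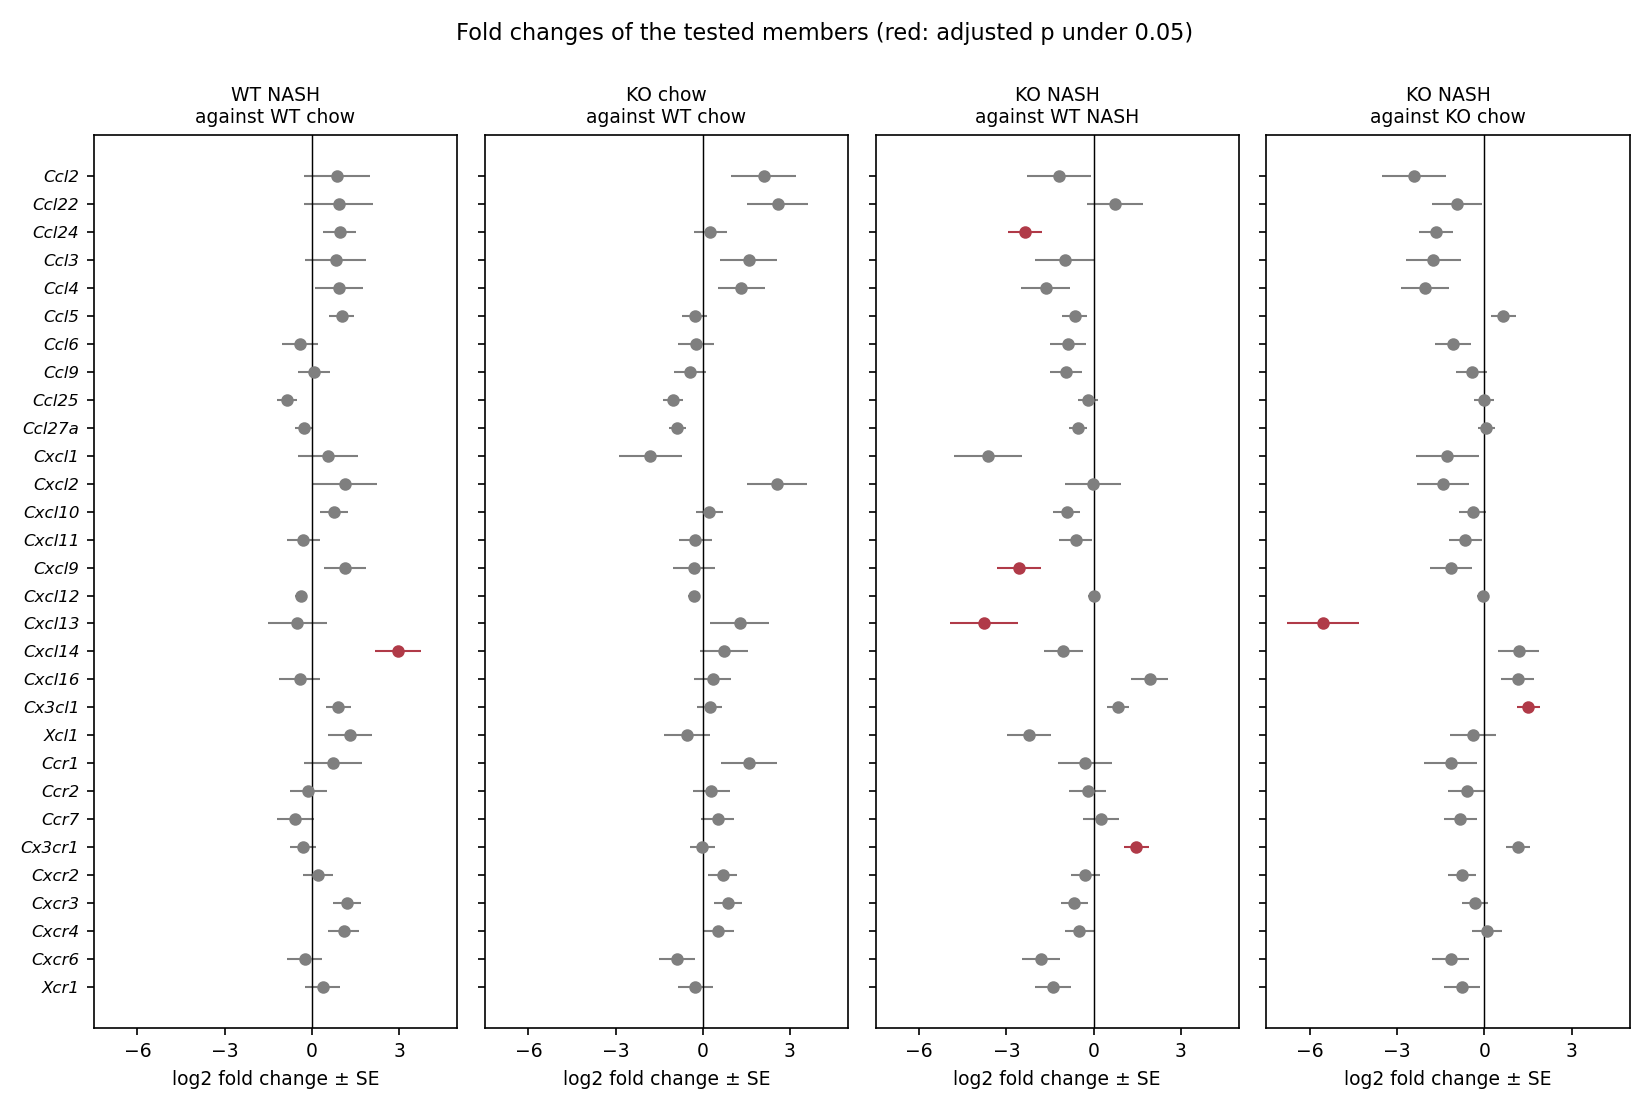
The log2 fold change of 30 tested genes with its SE, for 4 comparisons, ordered by role. Red marks an adjusted p under 0.05 in edgeR's quasi-likelihood test: 1 gene in WT NASH against WT chow, none in KO chow against WT chow, 4 in KO NASH against WT NASH and 2 in KO NASH against KO chow. Most points of the last 2 panels lie left of 0.

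Among the inflammatory CC ligands, 8 of 16 could be tested, and Ccl24 was the only one called. Ccl24 (ENSMUSG00000004814), also named eotaxin-2, draws eosinophils through CCR3 and lies on the minus strand at chr5:135569937-135573049 in GRCm38. Its level was 1.01, 0.217, 2.89, 5.98 and 2.98 CPM in WT chow 1 to 5. It was 2.84, 4.33, 2.00, 10.6 and 5.62 CPM in WT NASH 1 to 5. In KO chow it was 1.48, 2.13, 4.21, 2.40 and 5.10 CPM, and in KO NASH 1.32, 1.11, 0.683, 0.767 and 0.907 CPM. Every KO NASH library lay below every WT NASH library and every KO chow library, while WT chow reached both lower and higher. Of all genes, 6.44% were lower in every KO NASH library than in every WT NASH library, and among the 31 these were Ccl24 and Cxcl13. The group means of Ccl24 were 5.08 ± 3.38 CPM in WT NASH and 0.958 ± 0.260 in KO NASH (SD, n = 5 each), a log2 fold change of -2.36 with an SE of 0.598 (edgeR adjusted p = 0.0180, 0.00106 to 0.0536 over the alternatives).

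This was the call among the 7 that was lost least often, in 2 of 32 alternatives. Without WT NASH 4 the log2 fold change was -1.93 (edgeR adjusted p = 0.0511), and with sex and length slope as terms it was -1.57 (edgeR adjusted p = 0.0536). With sex alone as a term it was -2.34 (edgeR adjusted p = 0.0427). Among females, the 4 WT NASH libraries lay between 2.00 and 5.62 CPM and the 1 KO NASH female at 1.11. Against KO chow the log2 fold change of Ccl24 was -1.66 (SE 0.589, edgeR adjusted p = 0.110), not called, although it was called with only the groups compared (-1.67, edgeR adjusted p = 0.0422) and by DESeq2 (-1.69, adjusted p = 0.0449). The interaction was -2.62 (SE 0.821, edgeR adjusted p = 0.252), likewise not called, although it reached the threshold with the length slope as a term (-2.70, edgeR adjusted p = 0.0301). Its receptor gene Ccr3 was too low to judge, with at most 10 counts in a library.

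The other inflammatory CC ligands varied mostly by library. Ccl2, the main ligand of CCR2 on monocytes, was 31.2 CPM in KO chow 5 and between 0 and 6.03 CPM in the other 19 libraries. Its log2 fold change in KO NASH against KO chow was -2.42 (SE 1.11, edgeR adjusted p = 0.204), and it became 0.49 when KO chow 5 was left out. Ccl3 and Ccl4, ligands made by activated macrophages and lymphocytes, were also highest in KO chow 5, at 3.95 and 6.99 CPM. Ccl22, a ligand of CCR4 on regulatory and type 2 helper T cells, reached 3.22 CPM there and lay at or below 0.938 CPM elsewhere. The log2 fold changes of Ccl3 and Ccl4 in KO NASH against KO chow were -1.76 and -2.04 (edgeR adjusted p = 0.270 and 0.152). Ccl6 ran from 9.89 CPM in WT chow 1 to 163 CPM in WT chow 4, and Ccl9 from 28.5 CPM in KO chow 1 to 249 CPM in WT NASH 4.

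Ccl5, made by T and NK cells, had its higher mean on the NASH diet in both genotypes. It measured 6.94 ± 1.71 CPM in WT NASH against 3.44 ± 2.97 in WT chow, and 4.42 ± 1.02 in KO NASH against 2.84 ± 1.28 in KO chow (SD, n = 5 each). The WT chow mean was carried by replicate 4 at 8.74 CPM, the other 4 lying between 1.90 and 2.29 CPM, and the WT NASH libraries between 4.66 and 9.10 CPM. The log2 fold change was 1.03 in WT (SE 0.428, edgeR adjusted p = 0.160) and 0.65 in KO (SE 0.423, edgeR adjusted p = 0.363). Neither was called, but without WT chow 4 the WT difference was 1.72 and called (edgeR adjusted p = 0.0117). WT chow held 5 males and WT NASH 1, so sex and diet were mixed in the WT difference.

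Of the homeostatic CC ligands only Ccl25 and Ccl27a passed the filter. Ccl25, the thymus and gut ligand of CCR9, had 4.37 ± 1.76 CPM in WT chow against 2.13 ± 0.638 in KO chow, with 2.46 ± 1.23 in WT NASH against 2.10 ± 0.717 in KO NASH (SD, n = 5 each). The difference of KO chow from WT chow was -1.03 on the log2 scale (SE 0.348, edgeR adjusted p = 0.0870). Ccl27a, the skin ligand of CCR10, had 3.87 ± 1.43 CPM in WT chow and 2.12 ± 0.812 in KO chow (SD, n = 5 each), with a log2 fold change of -0.87 (edgeR adjusted p = 0.0996). It was called with sex as a term, at -1.11, and among males alone, at -1.28 (edgeR adjusted p = 0.0438 and 0.0490). Both genes share exon sequence on the opposite strand with a more abundant gene, Ccl25 with Elavl1 (490 mean counts against 42.8) and Ccl27a with Il11ra1 (362 against 45.9). Because it is not given whether counting used the strand, reads of the partner cannot be told apart from theirs. Ccl27a also has a near copy, Ccl27b, so its counts are uncertain.

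The ligands of CXCR2, the main chemokine receptor of neutrophils, were Cxcl1 and Cxcl2 among the tested genes. Cxcl1 was 2.84, 3.36, 5.67, 113 and 15.7 CPM in WT chow 1 to 5 and 4.00, 19.9, 13.1, 162 and 9.88 in WT NASH 1 to 5. It was 1.85, 2.05, 4.50, 1.82 and 30.2 CPM in KO chow 1 to 5 and between 2.58 and 4.28 CPM in KO NASH. Replicate 4 of both WT groups and KO chow 5 stood far above their groups, and KO NASH overlapped WT NASH only at WT NASH 1. The log2 fold change in KO NASH against WT NASH was -3.63 (SE 1.16, edgeR adjusted p = 0.0521), just short of the threshold. It was called in 12 of 32 alternatives, among them with only the groups compared at -3.66 (edgeR adjusted p = 0.0246). Among males alone the log2 fold change was -5.55, with WT NASH 4 at 162 CPM the only WT NASH library. Among the libraries of positive length slope, an alternative added after seeing the data, it was called at the smaller size of -1.82 (edgeR adjusted p = 0.00431). Cxcl2 reached 4.62 CPM in KO chow 5 and at most 0.965 CPM in the other 19 libraries. Its receptor gene Cxcr2 had group means of 0.530 to 0.901 CPM.

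Cxcl9, Cxcl10 and Cxcl11, the interferon-induced ligands of CXCR3 on activated T and NK cells, lie together on chromosome 5. Cxcl9 (minus strand, chr5:92321347-92328079 in GRCm38) was 10.1, 10.5, 11.6, 89.7 and 14.97 CPM in WT chow 1 to 5. The WT NASH libraries 1 to 5 held 10.7, 33.5, 36.0, 184 and 36.6 CPM. In KO chow 1 to 5 it was 7.64, 9.89, 15.1, 18.9 and 59.9 CPM, and in KO NASH 7.89, 11.3, 8.88, 14.3 and 7.98 CPM. Of the 5 WT NASH libraries 4 lay above every KO NASH library, and WT NASH 1 at 10.7 CPM lay within the KO NASH range. Means were 60.1 ± 69.9 CPM in WT NASH and 10.1 ± 2.73 in KO NASH (SD, n = 5 each), a log2 fold change of -2.57 with an SE of 0.752 (edgeR adjusted p = 0.0359, 0.00325 to 0.179 over the alternatives).

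The Cxcl9 call was lost in 9 of 32 alternatives. Without WT NASH 4, which held 184 CPM, the log2 fold change was -1.54 (edgeR adjusted p = 0.179). Without KO NASH 1, 2, 3, 4 or 5 the edgeR adjusted p was 0.0878, 0.0633, 0.0780, 0.0515 or 0.0915, and with sex as a term 0.0575. With the length slope as a term it was -1.48 (edgeR adjusted p = 0.0422) and among the libraries with a positive slope -1.53 (edgeR adjusted p = 0.00437), an alternative added after seeing the data. The female libraries of WT NASH had 10.7 to 36.6 CPM and the female of KO NASH 11.3.

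Cxcl10 lay at 6.68 ± 3.24 CPM in WT NASH and 3.49 ± 1.80 in KO NASH (SD, n = 5 each), a log2 fold change of -0.93 with an SE of 0.470 (edgeR adjusted p = 0.220). Cxcl11 lay at 2.00 ± 0.418 and 1.30 ± 0.828 CPM in the same groups (SD, n = 5 each), a log2 fold change of -0.62 (edgeR adjusted p = 0.540). All 3 ligands were below 0 in both comparisons with KO NASH, and Cxcl9 was the one called. The annotation lists Cxcl11 as a polymorphic pseudogene, and Cxcl10 overlaps Art3 on the opposite strand (28.5 mean counts against 73.4). Cxcr3, their receptor gene, was 1.22 ± 0.377 CPM in WT NASH against 0.542 ± 0.295 in WT chow, and 0.764 ± 0.247 in KO NASH against 0.980 ± 0.548 in KO chow (SD, n = 5 each). Its highest difference was 1.20 in WT NASH against WT chow (SE 0.493, edgeR adjusted p = 0.151), not called.

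The 250 bases before the transcript starts of Cxcl9 and Cxcl10 are shown because these neighbours share a receptor and 1 of them was called. They come from RefSeq in GRCm38.p6, whose promoter table held 41 of the 57 genes, and are read 5′ to 3′ on the minus strand, at chr5:92328080-92328329 for Cxcl9 and chr5:92348890-92349139 for Cxcl10. Capitals mark matches to any of the following motifs: the interferon-stimulated response element TTTCNNTTTC, the gamma-activated site TTCNNNGAA and the NF-kB consensus on both strands, and the TATA box TATAAA on the gene's own strand.
Cxcl9: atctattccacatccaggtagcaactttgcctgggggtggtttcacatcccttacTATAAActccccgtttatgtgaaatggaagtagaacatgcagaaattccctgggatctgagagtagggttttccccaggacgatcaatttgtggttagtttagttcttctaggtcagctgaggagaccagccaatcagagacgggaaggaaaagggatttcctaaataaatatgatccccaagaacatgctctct
Cxcl10: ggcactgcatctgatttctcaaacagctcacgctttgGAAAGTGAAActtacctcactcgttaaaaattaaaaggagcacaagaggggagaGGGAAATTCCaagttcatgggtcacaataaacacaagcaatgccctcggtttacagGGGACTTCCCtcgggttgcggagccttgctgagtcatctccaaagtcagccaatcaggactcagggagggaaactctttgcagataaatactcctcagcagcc
The Cxcl10 window held 1 match to the interferon-stimulated response element, 213 to 204 bases before the start, and 2 to the NF-kB consensus, 159 to 150 and 103 to 94 bases before it. The Cxcl9 window held 1 TATAAA, 195 to 190 bases before the start. Of 32851 windows of this length over all genes, 2.98% held the interferon-stimulated response element, 7.02% the gamma-activated site, 3.90% the NF-kB consensus and 7.59% the TATAAA. A match describes letters in the window and is no evidence of binding.

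Interferon gamma signalling genes were read beside these ligands. Of 14 listed genes 12 were tested, and 4 fell in KO NASH against WT NASH, where 4.74% of all genes were called lower, among them Gbp3, Irf9 and Gbp2, with log2 fold changes of -1.46, -0.87 and -1.71 (edgeR adjusted p = 0.00525, 0.0118 and 0.0360). Irf9 encodes a transcription factor of interferon responses, and Gbp2 and Gbp3 are guanylate-binding proteins induced by interferon. Gbp3 measured 30.8 ± 11.1 CPM in WT NASH and 11.2 ± 3.00 in KO NASH (SD, n = 5 each). Against WT chow, Gbp3 rose in WT NASH by 1.01 on the log2 scale (edgeR adjusted p = 0.0493). Irf9 fell in KO chow against WT chow by 0.95 on the log2 scale (edgeR adjusted p = 0.00963), and none was called in KO NASH against KO chow. The median of the 12 was -0.41 in KO NASH against WT NASH, where all genes had 0.00. Ifng, the inducing cytokine itself, was too low to judge.

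Of the remaining CXC ligands, Cxcl13 showed the widest range. Cxcl13 (plus strand, chr5:95956951-95961068 in GRCm38) draws B cells and follicular helper T cells through CXCR5. It was 2.72, 57.5, 8.56, 22.1 and 4.50 CPM in WT chow 1 to 5 and 3.36, 7.59, 14.2, 38.4 and 5.29 in WT NASH 1 to 5. In KO chow it was 2.78, 3.10, 5.10, 36.0 and 184 CPM, and in KO NASH 0.426, 0.812, 1.30, 1.96 and 0.453 CPM. All 5 KO NASH libraries lay below the other 15, a pattern seen for 34 of the 14440 genes (0.235%) and for no other of the 31. The means were 46.2 ± 78.4 CPM in KO chow and 0.992 ± 0.649 in KO NASH (SD, n = 5 each), a log2 fold change of -5.55 with an SE of 1.24 (edgeR adjusted p = 0.0219, 2.2e-05 to 0.138 over the alternatives). Against WT NASH, at 13.8 ± 14.4 CPM (SD, n = 5), the log2 fold change was -3.78 with an SE of 1.17 (edgeR adjusted p = 0.0450, 0.00464 to 0.191 over the alternatives).

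The size of the Cxcl13 difference from KO chow rested on 1 library. Without KO chow 5, at 184 CPM, the log2 fold change was -3.60 (edgeR adjusted p = 0.0683), and without KO NASH 1, 2 or 5 the edgeR adjusted p was 0.0531, 0.0539 or 0.0621. With the length slope as a term it was -3.77 (edgeR adjusted p = 0.0743), and among the libraries of positive slope -1.89 (edgeR adjusted p = 0.138). Both calls of Cxcl13 were often lost, in 10 of 32 alternatives against KO chow and in 16 of 32 against WT NASH. The latter was lost without WT NASH 4, at -2.95 (edgeR adjusted p = 0.131), and without WT NASH 2, 3 or 5, WT chow 3 or 4, KO chow 4 or any KO NASH library, with edgeR adjusted p from 0.0508 to 0.113. The interaction was -5.05 (SE 1.54, edgeR adjusted p = 0.229), and it was 0.06 among the libraries of positive length slope. The sign of the 2 comparisons with KO NASH was below 0 in every alternative run. Cxcr5, the receptor gene, was too low to judge, with at most 18 counts in a library. The 6 B and plasma cell markers summed to 4.50 to 18.2 CPM in KO NASH, against 10.2 to 111 CPM for WT NASH and 6.27 to 47.7 CPM for KO chow. None of the 6 was called by edgeR (2 and 3 had an unadjusted p under 0.05 against WT NASH and KO chow), and their part in the Cxcl13 result was not tested.

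The window of Cxcl13 is shown as that of the gene whose KO NASH libraries lay apart from all others (RefSeq, GRCm38.p6, plus strand, chr5:95956689-95956938, 250 bases before the start, capitals for motif matches as above).
Cxcl13: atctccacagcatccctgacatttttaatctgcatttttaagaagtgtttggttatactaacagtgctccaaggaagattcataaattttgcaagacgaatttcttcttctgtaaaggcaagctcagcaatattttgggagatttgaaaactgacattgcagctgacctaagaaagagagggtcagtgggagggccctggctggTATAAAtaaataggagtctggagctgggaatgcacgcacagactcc
It held 1 TATAAA, 46 to 41 bases before the start, and no match to the other 3 motifs.

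Cxcl14 (minus strand, chr13:56288643-56296551 in GRCm38) is an epithelial chemokine whose receptor is less settled than those of its relatives. It was 0.415, 0.162, 0.299, 0.665 and 0.0693 CPM in WT chow 1 to 5 and 0.904, 0.297, 0.908, 10.2 and 0.969 in WT NASH 1 to 5. It was between 0.278 and 0.684 CPM in KO chow and between 0.767 and 1.71 CPM in KO NASH. WT NASH 4 stood above every other library, and WT NASH 2 lay within the WT chow range, while KO NASH lay wholly above KO chow. WT NASH 4 was also the only male of its group, whereas WT chow held only males, so sex and diet were mixed. Means were 2.65 ± 4.20 CPM in WT NASH and 0.322 ± 0.232 in WT chow (SD, n = 5 each), a log2 fold change of 2.96 with an SE of 0.789 (edgeR adjusted p = 0.0296, 0.00176 to 0.202 over the alternatives). The level rested on few reads, 7, 3, 3, 7 and 1 in WT chow 1 to 5. The call was lost in 6 of 31 alternatives. With only the groups compared Cxcl14 had no result, so that fit is not among the 31. Without WT NASH 4 it was 1.28 (edgeR adjusted p = 0.0903), without WT chow 3 or 5 it was 2.96 or 2.70 (edgeR adjusted p = 0.0697 or 0.0828), and with a replicate block 2.46 (edgeR adjusted p = 0.0522). Among the libraries of positive length slope it was 1.41 (edgeR adjusted p = 0.202), and with limma voom 1.35 (adjusted p = 0.104). Between the KO groups it was 1.18 (SE 0.708, edgeR adjusted p = 0.315), not called. Genes with every KO NASH library above every KO chow library made up 4.19% of all genes, and among the 31 they were Cx3cl1, Cx3cr1 and Cxcl14.

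Cxcl16, a membrane-bound ligand that also takes up oxidised lipoprotein, stood near the threshold. It was 0.258, 0.178, 0.424, 0.147 and 0.0646 CPM in WT NASH 1 to 5 and 0.469, 0.898, 0.993, 0.910 and 1.04 in KO NASH 1 to 5. The groups did not overlap, although KO chow 5 reached 1.03 CPM and WT chow 3 0.597. Of all genes 7.67% were higher in every KO NASH library than in every WT NASH library, and among the 31 these were Cxcl16 and Cx3cr1. The log2 fold change was 1.92 with an SE of 0.622 (edgeR adjusted p = 0.0512). The gene was called in 9 of 31 alternatives and stayed not called in 22. It was called at 2.16 with the length slope as a term and at 2.31 with sex and length slope as terms (edgeR adjusted p = 0.0111 and 0.0260). Cxcl16 had few reads, 8.05 per library on average, and overlaps Zmynd15 on the opposite strand (2.75 per library). Its receptor gene Cxcr6, found on resident NK, NKT and memory T cells, went the other way: 3.31 ± 2.63 CPM in WT NASH and 0.899 ± 0.396 in KO NASH (SD, n = 5 each), a log2 fold change of -1.81 with an SE of 0.642 (edgeR adjusted p = 0.0771). Cxcl12 differed by 0.02 in the same comparison (SE 0.206, edgeR adjusted p = 0.957).

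Cx3cl1, also named fractalkine, is a membrane-anchored chemokine of endothelium and epithelium, and Cx3cr1 on monocytes, macrophages and NK cells is its receptor. Cx3cl1 (plus strand, chr8:94772009-94782427 in GRCm38) was 0.355, 0.650, 0.796, 0.475 and 0.208 CPM in WT chow 1 to 5 and 0.968, 1.60, 0.666, 0.441 and 0.839 in WT NASH 1 to 5. In KO chow it was 0.278, 0.764, 0.693, 0.436 and 0.729 CPM and in KO NASH 1.96, 1.71, 1.18, 1.01 and 2.45 CPM. KO NASH lay wholly above KO chow and WT chow, and only WT NASH 2 at 1.60 CPM reached into its range. The means were 1.66 ± 0.586 CPM in KO NASH and 0.580 ± 0.213 in KO chow (SD, n = 5 each), a log2 fold change of 1.50 with an SE of 0.393 (edgeR adjusted p = 0.0405, 0.00734 to 0.151 over the alternatives). Against WT NASH it was 0.84 (SE 0.386, edgeR adjusted p = 0.171).

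The Cx3cl1 call was lost in 13 of 32 alternatives, while its log2 fold change stayed between 1.32 and 1.71. Without KO chow 1, 4 or 5 the edgeR adjusted p was 0.0912, 0.0967 or 0.0681, and without KO NASH 1, 2, 3 or 5 it was 0.0826, 0.0747, 0.0533 or 0.110. Without WT NASH 1 or 5 it was 0.0508 or 0.0518. With sex as a term it was 1.63 and with sex and length slope as terms 1.52 (edgeR adjusted p = 0.0286 and 0.0260). The Cx3cl1 window (RefSeq, GRCm38.p6, plus strand, chr8:94771930-94772179, 250 bases before RefSeq's start, which lies inside the GENCODE gene, capitals as above) is shown as that of the ligand called higher in KO NASH.
Cx3cl1: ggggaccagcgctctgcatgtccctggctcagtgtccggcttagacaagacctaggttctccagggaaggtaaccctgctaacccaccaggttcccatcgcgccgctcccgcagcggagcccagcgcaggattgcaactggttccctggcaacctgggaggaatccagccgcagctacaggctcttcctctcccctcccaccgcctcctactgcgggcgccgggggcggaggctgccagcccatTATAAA
It ended in 1 TATAAA, 6 to 1 bases before the start, and held no match to the other 3 motifs.

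Cx3cr1 (minus strand, chr9:119901616-120069879 in GRCm38) was 1.13, 2.17, 0.995, 2.47 and 0.693 CPM in WT chow 1 to 5 and 0.775, 0.653, 1.15, 1.77 and 1.74 in WT NASH 1 to 5. In KO chow it was 1.25, 2.45, 1.78, 0.290 and 1.52 CPM and in KO NASH 4.18, 2.69, 2.86, 2.59 and 4.26 CPM. All 5 KO NASH libraries lay above the other 15, as for 69 genes in all (0.478%) and for no other of the 31, with WT chow 4 at 2.47 CPM nearest to the lowest of them. Means were 3.32 ± 0.832 CPM in KO NASH and 1.22 ± 0.524 in WT NASH (SD, n = 5 each), a log2 fold change of 1.47 with an SE of 0.439 (edgeR adjusted p = 0.0382, 0.00103 to 0.467 over the alternatives). Against KO chow it was 1.16 (SE 0.422, edgeR adjusted p = 0.119), and the interaction was 1.48 (SE 0.616, edgeR adjusted p = 0.489).

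The Cx3cr1 call was lost in 11 of 32 alternatives. With sex as a term the log2 fold change was 1.37 (edgeR adjusted p = 0.117), with sex and length slope as terms 1.27 (edgeR adjusted p = 0.0986), and with a replicate block 1.49 (edgeR adjusted p = 0.0570). Without WT NASH 1, 2 or 3 the edgeR adjusted p was 0.0735, 0.0953 or 0.0654, and without KO NASH 1, 3 or 5 it was 0.0821, 0.0584 or 0.0889. The female KO NASH library had 2.69 CPM and the 4 female WT NASH libraries 0.653 to 1.74. Among the 9 recruited monocyte and macrophage markers, Gpnmb rose in the same comparison by 4.22 on the log2 scale (edgeR adjusted p = 0.00177) and the other 8 were not called. The summed level of these markers was 140 to 1081 CPM in WT NASH and 165 to 433 in KO NASH, and the part of these cells in the Cx3cr1 result was not tested.

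**Figure D4:**
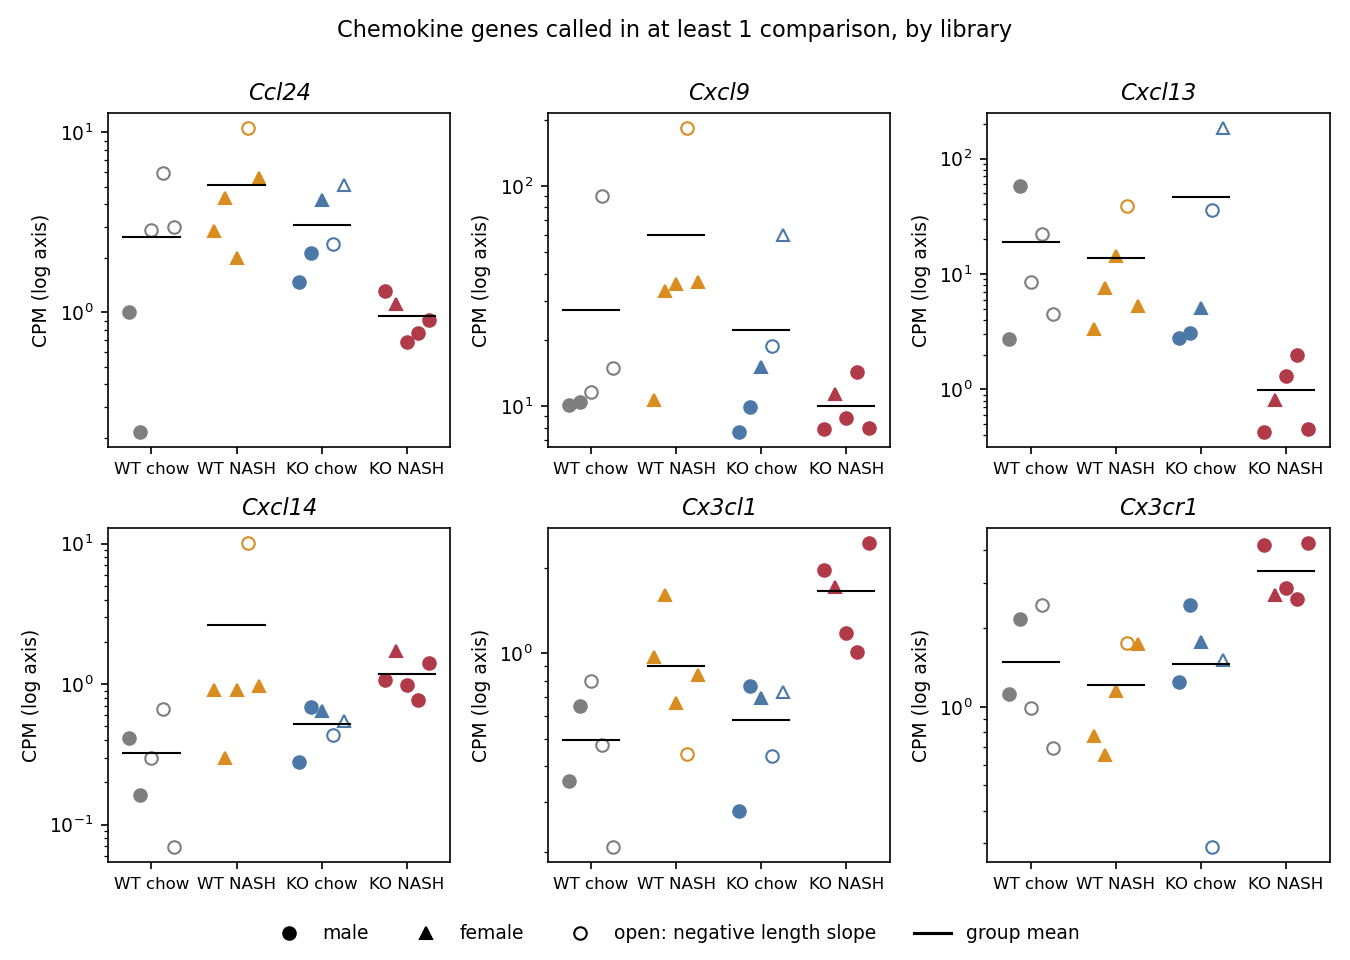
CPM by library on a log axis for the 6 chemokine genes called in at least 1 comparison, with circles for males, triangles for females, open symbols for libraries of negative length slope and lines for group means. KO NASH lies below all other libraries for Cxcl13 and above all for Cx3cr1, and single open symbols such as WT NASH 4 for Cxcl14 at 10.2 CPM and KO chow 5 for Cxcl13 at 184 CPM lift their group means.

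Xcl1, which NK and T cells release to draw cross-presenting dendritic cells, and its receptor gene Xcr1 were both lower in KO NASH than in WT NASH without being called. Xcl1 was 0.839, 2.73, 0.484, 2.80 and 2.45 CPM in WT NASH 1 to 5 and 0.171, 0.470, 0.621, 0.335 and 0.363 in KO NASH 1 to 5. The groups overlapped only through WT NASH 3, which lay below KO NASH 3. The log2 fold change was -2.22 with an SE of 0.771 (edgeR adjusted p = 0.0688). Xcr1 had 1.32 ± 0.631 and 0.494 ± 0.146 CPM (SD, n = 5 each), a log2 fold change of -1.40 with an SE of 0.616 (edgeR adjusted p = 0.151). The 8 NK and innate lymphoid markers summed to 11.4 to 24.3 CPM in WT NASH and to 3.50 to 9.58 in KO NASH, which did not overlap. Of these markers Gzma and Gzmb, both cytotoxic granule proteases, fell by 2.53 and 2.00 on the log2 scale (edgeR adjusted p = 0.0486 and 0.0317). The 7 dendritic cell markers summed to 12.1 to 26.2 CPM in WT NASH and 13.7 to 19.4 in KO NASH, and none was called by edgeR (1 had an unadjusted p under 0.05). The 9 T cell markers summed to 6.59 to 17.7 CPM in WT NASH and 3.79 to 8.29 in KO NASH. Of the 6 tested, 1 was called lower, Cd3g, with a log2 fold change of -1.81 (edgeR adjusted p = 0.0371). Whether these cells had a part in the Xcl1, Cxcr6 or Cxcl9 values was not tested.

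None of the 4 tested CC receptors was called by edgeR, DESeq2 or limma voom in any comparison, and edgeR gave 0 of them an unadjusted p under 0.05. Ccr2, the receptor of inflammatory monocytes, lay between 1.42 and 7.33 CPM apart from WT chow 4 at 20.9, WT NASH 4 at 16.8 and KO chow 5 at 24.4. Ccr1 followed the same libraries, with 2.85, 2.50 and 8.81 CPM there and at most 1.88 CPM elsewhere. Every KO NASH library lay below every KO chow library for 4.31% of all genes and for 3 of the 31, among them Ccl24 and Cxcl13. Ccr7, which guides dendritic and naive T cells to lymph nodes, had group means of 0.302 to 0.690 CPM. Cxcr4, the receptor of Cxcl12, had 2.89 ± 1.11 CPM in WT NASH and 1.36 ± 0.611 in WT chow (SD, n = 5 each), a log2 fold change of 1.09 with an SE of 0.534 (edgeR adjusted p = 0.232). The 7 Kupffer cell markers summed to 245 to 349 CPM in KO NASH and 247 to 927 in WT chow, which overlapped. They summed to 350 to 793 CPM in WT NASH and 389 to 1116 in KO chow. Of the 7, Timd4 alone was called lower in KO NASH than in WT NASH, where 4.74% of all genes were called lower. Its log2 fold change was -1.41 (edgeR adjusted p = 0.0408). All 7 lay below 0 in both comparisons with KO NASH. An unadjusted p under 0.05 in edgeR was reached by 3 against WT NASH and by 7 against KO chow, where 0 were called. For all genes the unadjusted shares were 25.6% and 22.2%. The part of Kupffer cells in the values of the macrophage-made ligands was not tested.

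Further genes of the chemokine system were read from lists. None of 8 tested atypical receptors and related genes was called by edgeR in any of the 5 comparisons. The same held for 23 genes of leukocyte signalling below the receptors. Of all genes edgeR called 0.139% to 9.65%, depending on the comparison. At an unadjusted p under 0.05 edgeR gave 0 to 2 of the 8 and 1 to 4 of the 23, where the shares of all genes were 22.1% in WT NASH against WT chow, 19.4% in KO chow against WT chow, 25.6% in KO NASH against WT NASH, 22.2% between the KO groups and 8.25% in the interaction. Other tools were not counted for these lists. Of the 23 signalling genes 22 had a log2 fold change above 0 in WT NASH against WT chow, with a median of 0.32 against 0.01 for all genes. On chow alone, KO relative to WT had 19 above 0 (median 0.24, all genes 0.00). Between the KO groups 12 lay above and 11 below 0 (median 0.007, all genes -0.02). Between the NASH groups, KO relative to WT, 8 lay above and 15 below (median -0.06, all genes 0.00). The first 2 comparisons share the WT chow libraries, and the part of diet in the lean was not tested. A list of NF-kB subunits, inhibitors and inducing cytokines, with related genes, had 22 tested genes. Those called by edgeR, Cd14, Jun and Il1r1, are not themselves NF-kB subunits, inhibitors or cytokines. Cd14, the co-receptor for endotoxin, and Jun rose in KO NASH against WT NASH (where 4.9% of all genes were called higher). Their log2 fold changes were 2.00 and 1.14 (edgeR adjusted p = 0.0452 and 0.0236). Il1r1, the interleukin-1 receptor, fell in KO chow against WT chow by 1.89 on the log2 scale, from 84.3 ± 38.1 to 22.7 ± 3.46 CPM (SD, n = 5 each, edgeR adjusted p = 0.00162). It rose in KO NASH against KO chow by 1.64 (edgeR adjusted p = 0.0101), to 70.6 ± 23.2 CPM (SD, n = 5). Of 6 tested adhesion molecules for leukocytes, Sele (E-selectin) rose in KO NASH against WT NASH by 3.29 (edgeR adjusted p = 0.0274) from 0.155 ± 0.159 to 1.45 ± 1.65 CPM (SD, n = 5 each).

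The 26 genes too low to judge comprised 18 ligands and 8 receptors. Of them 4, Ccl21b, Ccl21c, Ccl26 and Cxcl3, had no count in any library, which allows up to 3 counts, or 0.121 to 0.441 CPM depending on the library. Ccl7, a further CCR2 ligand, had 166 counts in all, of which 80 were in KO chow 5. Cxcr5 had 103 counts in all, Ccr9 92, Ccl28 82, Cxcr1 59, Ccl8 55, Ccr3 41, Ccr6 39, Ccl12 38, Ccl17 32, Ccl27b 23 and Ccr4 22. The highest count of these in a single library was 19. Ccr10 had 19 counts in all, Ccl11 16, Ccl20 12, Cxcl5 9, Ccl19 8, Cxcl17 7, Ccr8 6, Ccl1 4, Ccl21a 4 and Cxcl15 1, with at most 9 in a library. Ccl19, Ccl21a, Ccl21b and Ccl21c have near-identical copies among which reads can be split, so their low counts are uncertain. Lymph node ligands (Ccl19, Ccl21a), the CCR4 ligand Ccl17 and the eotaxin Ccl11 thus could not be judged at this depth in whole liver.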

How the data were processed

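Raw counts per gene symbol were deposited by the authors, as whole numbers with a different total in each of the 20 libraries (5 in each group). HISAT2 2.0.4 and GRCm38 are named in the submitters' processing notes, without their roles. How reads were counted, with which annotation and whether by strand, is not given in the sources used here. Columns named for a high-fat diet were taken as the NASH groups, since all others are named for chow.

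Tests used edgeR 4.0.16 under R 4.3.3: filterByExpr (minimum count 10) kept 14440 genes, library sizes were scaled with TMM, and a model of 4 groups was fitted to all libraries. Quasi-likelihood F tests were adjusted over all genes by Benjamini-Hochberg and called under 0.05. SE is the absolute log2 fold change of the unshrunk coefficients divided by the root of F. The log2 fold changes given are the shrunken ones of edgeR. The fitting code was tested on simulated data. Levels are CPM on TMM-scaled sizes, and levels per length use the exonic length of GENCODE M21, which held 54 of the 57 genes. Sex was read from Y-linked genes (at least 100 counts). The length slope was fitted over 9447 genes, as log2 CPM minus each gene's mean over all libraries against log2 exonic length.

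Genes called in at least 1 comparison were named with values per library, the other tested genes with group values, and the rest as too low. Of the lists, called genes were named. The results of 1 tested member and 2 genes of the lists are not reported here, though all counts include them unless 30 genes are stated. The genes and lists were chosen with earlier results of these data known. The alternatives were other scaling, no filter, terms for sex, length slope or both, males alone, a replicate block, only the groups compared, KO NASH 1 and 5 summed, each library left out, limma 3.58.1 voom and DESeq2 1.42.0. A fit on the libraries of positive length slope was added after seeing the data.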

Additional observations from a re-analysis of the deposited data

Results flagged for a closer look

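A library is given here where it stood apart from the other 4 of its group, with a gap to its nearest neighbour, as a share of the group's range, above Dixon's critical value. Of 120 groups of 5 (30 genes in 4 groups), 28 held such a library. For independent values of a normal distribution about 1 in 20, or 6, would be flagged. The CPM were not log-transformed, many rest on few reads, and genes of a library vary together. The 28 therefore cannot be set against the 6. Of the 28, 14 were KO chow 5, 8 were WT chow 4 and 4 were WT NASH 4, all with a negative length slope.

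In KO chow 5 these were the CC ligands Ccl2 at 31.2 CPM, Ccl3 at 3.95, Ccl4 at 6.99, Ccl9 at 207.5 and Ccl22 at 3.22 CPM. The CXC ligands there were Cxcl1 at 30.2 CPM, Cxcl2 at 4.62, Cxcl9 at 59.9, Cxcl10 at 11.5 and Cxcl13 at 184 CPM. Its receptors were Ccr1 at 8.81 CPM, Ccr2 at 24.4, Cxcr2 at 2.37 and Xcr1 at 2.55 CPM.

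In WT chow 4 they were Ccl4 at 2.37 CPM, Ccl5 at 8.74, Ccl6 at 163, Ccl22 at 0.760, Cxcl1 at 113 and Cxcl9 at 89.7 CPM, with the receptors Ccr1 at 2.85 CPM and Ccr2 at 20.9 CPM. In WT NASH 4 they were Ccl3 at 2.65 CPM, Cxcl1 at 162, Cxcl9 at 184 and Cxcl14 at 10.2 CPM. Cxcl1 and Cxcl9 thus stood apart in replicate 4 of both WT groups.

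KO NASH held 2: Cxcl16 was lowest in replicate 1 at 0.469 CPM and Ccr7 was highest in replicate 2 at 0.513 CPM.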

How the results depend on the processing

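Of 7 called fold changes, none reversed in 223 values over the alternatives: 156 kept the call and 67 lost it. Of 790 values of fold changes not called, 728 stayed so, 53 were called and 9 reversed. The genes of the 31 called in WT NASH against WT chow, 1 in the report, numbered 6 with the length slope as a term, 0 with a replicate block, 0 with only the groups compared, 3 among the libraries of positive slope (added after seeing the data) and 2 by limma voom. Leaving out 1 library gave 0 to 2. In KO chow against WT chow the 0 became 1 with sex as a term, 1 with sex and length slope, 1 among males alone, 8 by limma voom and 1 by DESeq2, and 0 to 1 when 1 library was left out. In KO NASH against WT NASH the 4 became 1 with sex as a term and 1 with sex and length slope (Cxcl16). They became 8 with only the groups compared, 1 with KO NASH 1 and 5 summed and 8 with positive slopes. There were 9 by limma voom, 8 by DESeq2 and 1 to 6 when 1 library was left out. No count is given for males alone, where WT NASH held 1 library. In KO NASH against KO chow the 2 became 1 without the low-count filter, 1 with the length slope, 0 among males alone, 0 with KO NASH 1 and 5 summed, 4 by limma voom and 3 by DESeq2, and 0 to 2 when 1 library was left out. The interaction's 0 became 1 with the length slope, 1 with positive slopes, 2 by limma voom and 1 by DESeq2, and stayed 0 when any 1 library was left out. The causes were not tested.

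The reversed values were those of Ccl2 in KO NASH against KO chow (-2.42 in the report), at 0.0338 with the length slope, 0.16 with sex and length slope, 0.39 among males alone, 0.49 without KO chow 5 (-2.73 to 0.49 when 1 library was left out), 0.43 with positive slopes and 0.11 by limma voom. Among males alone, where WT NASH held 1 library, Ccl25 in WT NASH against WT chow was 0.0497 and Cx3cl1 -0.17. The Cxcl13 interaction was 0.0642 with positive slopes.

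Replicate numbers did not pair the samples: deviations from the group means correlated with a median r of 0.0534 over 30 same-numbered pairs (-0.405 to 0.518) and -0.0245 over 120 other pairs. With the replicate block KO NASH against WT NASH gave 3 calls and KO NASH against KO chow 2. Each group has 5 mice, sex and length slope are unevenly spread over the groups, and genes at 1 CPM rest on 6.80 to 24.9 reads a library, those below on fewer.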
